A study of Mus musculus with 32 samples.

Results

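The acute phase genes described here are the serum amyloid genes Saa1, Saa2, Saa3 and Saa4, the orosomucoid genes Orm1, Orm2 and Orm3, lipocalin 2 (Lcn2), haptoglobin (Hp) and hepcidin (Hamp). They were chosen by gene name, 10 of the 35275 genes of a liver RNA sequencing table. All 10 had reads in each of the 32 livers and passed the filter on low counts.

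The acute phase response is the change in plasma proteins that follows infection, injury or inflammation. Interleukin 6 and related cytokines signal to hepatocytes through the receptor subunit gp130 and the factor STAT3, and interleukin 1 through NF-kB and C/EBP factors. Serum amyloid A1 and A2 then travel on high-density lipoprotein, serum amyloid A3 is also made outside the liver, and serum amyloid A4 is the constitutive form. Orosomucoids are small carrier proteins of plasma. Lipocalin 2 binds bacterial iron carriers, haptoglobin binds free haemoglobin, and hepcidin blocks iron export from cells.

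The livers came from male c57bl6 mice aged 16 weeks, which had eaten their assigned diet since the age of 12 weeks. The groups crossed genotype, diet and fasting, with 4 animals in each of 8 groups: wild type (WT) or Fatp2-/- (KO), control diet (CD) or ketogenic diet (KD), and 4 or 24 h without food. Fatp2 takes part in fatty acid uptake and in joining very long-chain fatty acids to coenzyme A, and how its gene was disrupted, and in which cells, is not given in the sources used here. No group was left unfasted, and no animal is labelled as infected or injected, so every comparison is between fasted livers.

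Total counts ran from 13406678 to 24700310 per liver, and 3 counts in a liver are 0.121 to 0.224 per 1000000 of its total, the limit that a count of 0 allows for counting error only. Levels are given as counts per 1000000 of the library size after TMM scaling (CPM). Slc27a2, the gene of Fatp2, was at 121 to 318 CPM in the 16 KO livers and at 905 to 2229 CPM in the 16 WT livers. Skeletal muscle transcripts, marked by Acta1 above 10 CPM, were present in WT CD 24 h replicate 1, KO CD 24 h replicates 1 and 2 and KO KD 4 h replicate 4. The 10 hepatocyte markers summed to 44241 CPM or more in every liver. In whole tissue, fewer cells of a type and less RNA per cell cannot be told apart.

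The serum amyloid genes lie side by side on chromosome 7, GRCm38: Saa3 at 46711998 to 46715676, Saa4 at 46728017 to 46732543 and Saa1 at 46740501 to 46742980 on the minus strand, and Saa2 at 46751833 to 46754314 on the plus strand. The orosomucoid genes lie on the plus strand of chromosome 4, Orm1 at 63344560 to 63348163, Orm3 at 63356162 to 63359511 and Orm2 at 63362449 to 63365878. Lcn2 is on chromosome 2 (32384633 to 32387797), Hp on chromosome 8 (109575130 to 109579172) and Hamp on chromosome 7 (30942371 to 30944017), all on the minus strand. The genes are protein coding, and these are the positions of the deposited table.

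The bases before the start are shown for pairs of genes with alike sequences: Saa1 and Saa2, which moved together, and Orm2 and Orm3, which moved apart. Those of Hamp, whose level did not pass in any comparison, are shown as well. Each line holds the 250 bases upstream of the start, 5′ to 3′ on the gene's strand, from RefSeq on GRCm38.p6, and capitals mark matches on either strand to TTGCNNAA (C/EBP), TTCNNNGAA (STAT), GGCGCC (the core of a BMP response element) or TATAAA. The regions are chr7:46742981-46743230 for Saa1, chr7:46751583-46751832 for Saa2, chr4:63362199-63362448 for Orm2, chr4:63355908-63356157 for Orm3 and chr7:30944030-30944279 for Hamp.
Saa1: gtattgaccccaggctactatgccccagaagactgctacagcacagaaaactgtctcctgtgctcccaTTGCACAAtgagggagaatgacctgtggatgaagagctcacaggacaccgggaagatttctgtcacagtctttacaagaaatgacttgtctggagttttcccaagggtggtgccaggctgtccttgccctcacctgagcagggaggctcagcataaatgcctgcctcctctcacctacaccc
Saa2: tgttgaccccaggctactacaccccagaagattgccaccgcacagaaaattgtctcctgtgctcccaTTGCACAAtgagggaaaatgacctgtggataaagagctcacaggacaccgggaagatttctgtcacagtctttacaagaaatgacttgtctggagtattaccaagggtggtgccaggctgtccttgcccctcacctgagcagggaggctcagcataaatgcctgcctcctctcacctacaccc
Orm2: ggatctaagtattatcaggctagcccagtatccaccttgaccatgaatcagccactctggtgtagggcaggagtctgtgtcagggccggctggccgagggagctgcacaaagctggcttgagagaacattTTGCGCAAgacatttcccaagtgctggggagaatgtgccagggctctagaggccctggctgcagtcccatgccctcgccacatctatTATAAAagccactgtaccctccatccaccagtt
Orm3: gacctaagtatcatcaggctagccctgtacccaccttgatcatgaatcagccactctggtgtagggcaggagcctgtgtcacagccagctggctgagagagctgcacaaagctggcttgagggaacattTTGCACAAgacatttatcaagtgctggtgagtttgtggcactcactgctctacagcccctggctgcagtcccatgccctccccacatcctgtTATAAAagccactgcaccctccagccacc
Hamp: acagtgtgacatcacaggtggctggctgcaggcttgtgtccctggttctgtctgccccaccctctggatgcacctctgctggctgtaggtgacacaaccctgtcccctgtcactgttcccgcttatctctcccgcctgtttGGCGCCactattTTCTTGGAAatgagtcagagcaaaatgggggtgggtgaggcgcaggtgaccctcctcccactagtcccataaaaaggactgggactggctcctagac

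Saa1 and Saa2 were identical at 238 of 249 aligned bases of this window (95.6%), and both hold TTGCACAA, at positions -182 to -175 of Saa1 and -183 to -176 of Saa2 counted from the start. Orm2 and Orm3 were identical at 218 of 245 aligned bases (89.0%), and their C/EBP matches differ in the middle letters. Hamp held the STAT and BMP letters and no C/EBP match. Of the 8 members with a promoter entry (none was used for Orm1 and Hp), 7 held a C/EBP match, Hamp being the exception. The 7 include the alike promoters of Saa1 with Saa2 and of Orm2 with Orm3, so these matches are not independent. None of the 8 matched the NF-kB motif used, whose letters are not given here, so sites of another form may have been missed. Among all 32851 promoters of this length 9.56% held the C/EBP letters, 7.02% the STAT letters, 9.59% the BMP letters, 12.4% TATAAA and 7.25% the NF-kB motif. These matches are descriptions of sequence.

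Levels between genes are compared per gene length, as the authors' deposited FPKM values, which are scaled to the total count without TMM. Over the 32 livers the median level was 1707 FPKM for Hp, 1576 for Hamp, 436 for Orm1, 126 for Saa4, 53.3 for Saa1 and 15.1 for Saa2. Saa3 (7.74), Lcn2 (5.07), Orm2 (3.95) and Orm3 (2.89 FPKM) were far lower. In CPM the highest liver exceeded the lowest 508-fold for Saa2, 331-fold for Saa1, 165-fold for Lcn2, 59.0-fold for Orm3, 49.4-fold for Saa4, 39.9-fold for Orm2 and 19.997-fold for Saa3, against 6.67-fold for Orm1, 5.24-fold for Hp and 4.63-fold for Hamp. The 10 genes together took 0.270% to 1.30% of a liver's counts.

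**Figure D1:**
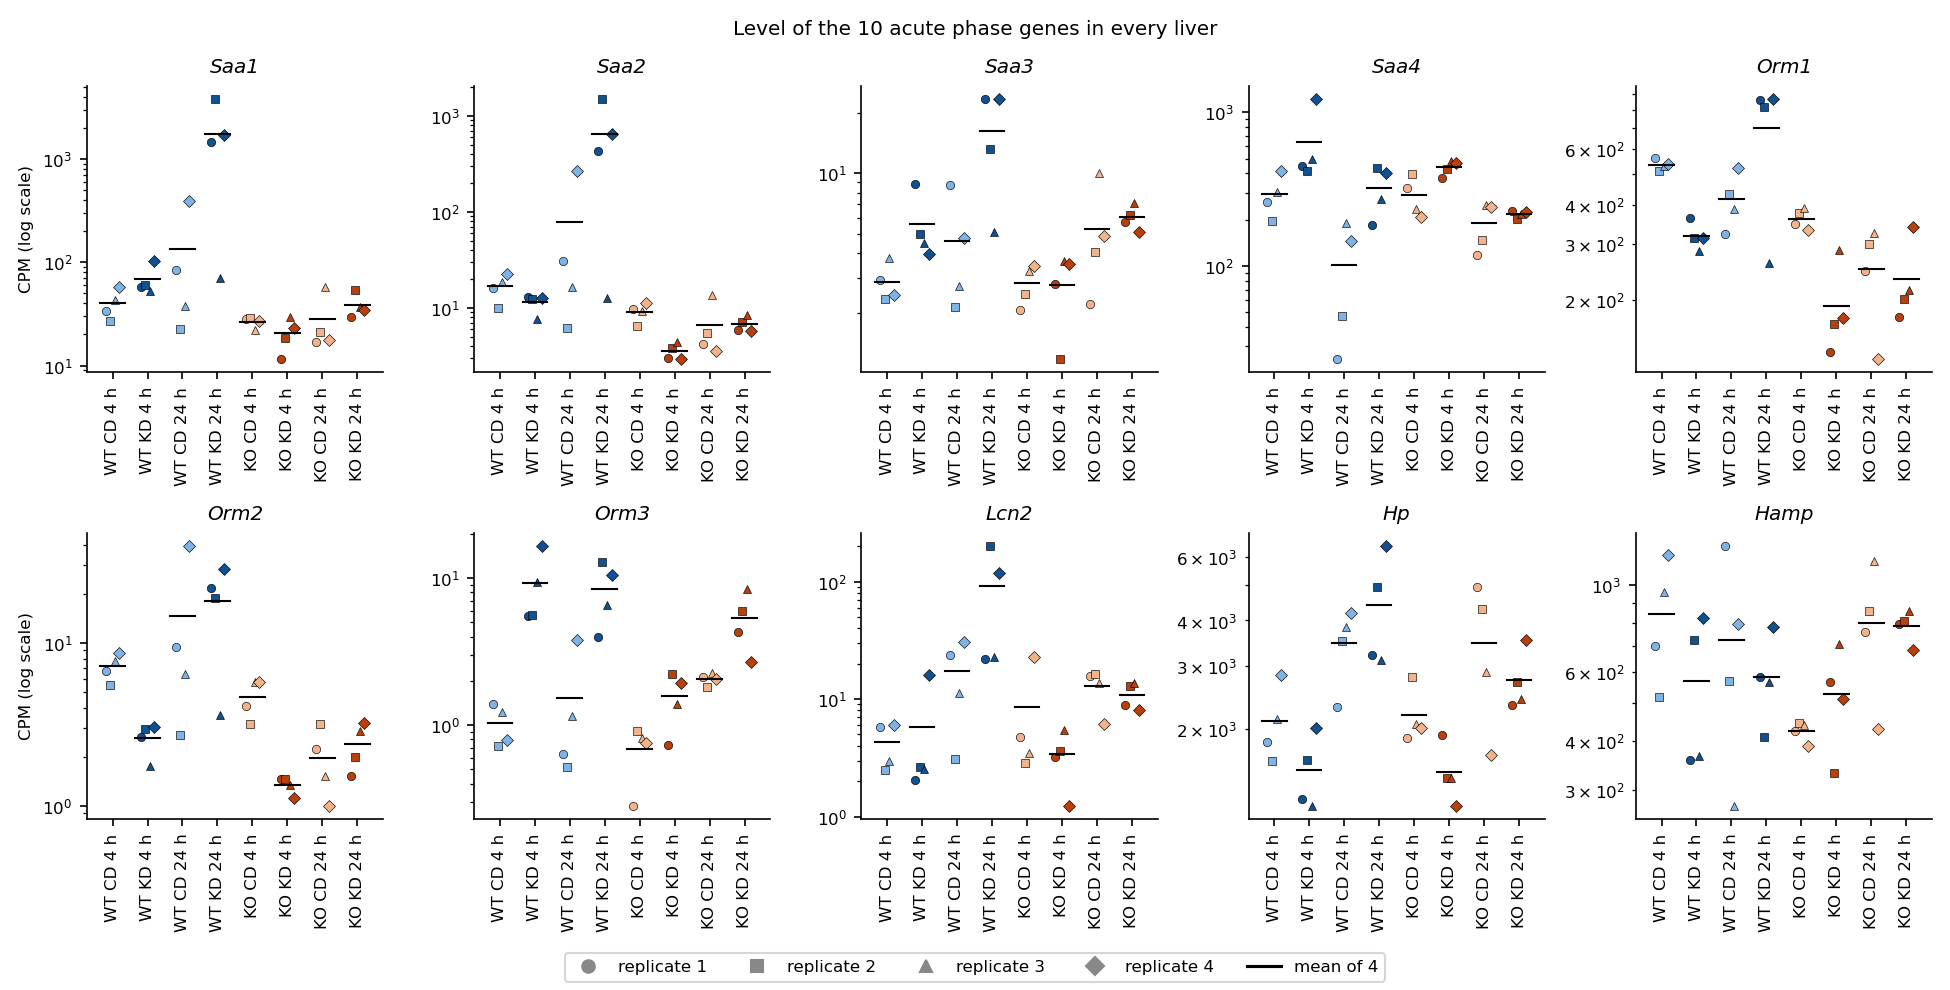
CPM of each of the 10 genes on a log axis in the 8 groups, one point per liver with the marker giving the replicate number, and a bar at the mean of 4. Saa1 stood at 1447 CPM or more in 3 of the 4 WT KD 24 h livers and at 57.2 CPM or less in all 16 KO livers.

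Each comparison below was tested for all 14438 genes that passed the filter, with edgeR's quasi-likelihood test and Benjamini-Hochberg adjustment, and a gene passed at an adjusted p under 0.05. In the plot of log2 fold changes, the KO against WT columns hold 8 calls, all lower, where 1.83% to 3.95% of all genes passed, and the fasting column of WT livers on KD holds 7, all higher, where 10.9% passed and 6.26% rose. WT livers on KD fasted for 24 h had the highest group mean for Saa1, Saa2, Saa3, Orm1, Orm2, Lcn2 and Hp, and Saa1, Saa2, Orm1, Orm2 and Lcn2 were lower in KO livers under the same conditions.

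**Figure D2:**
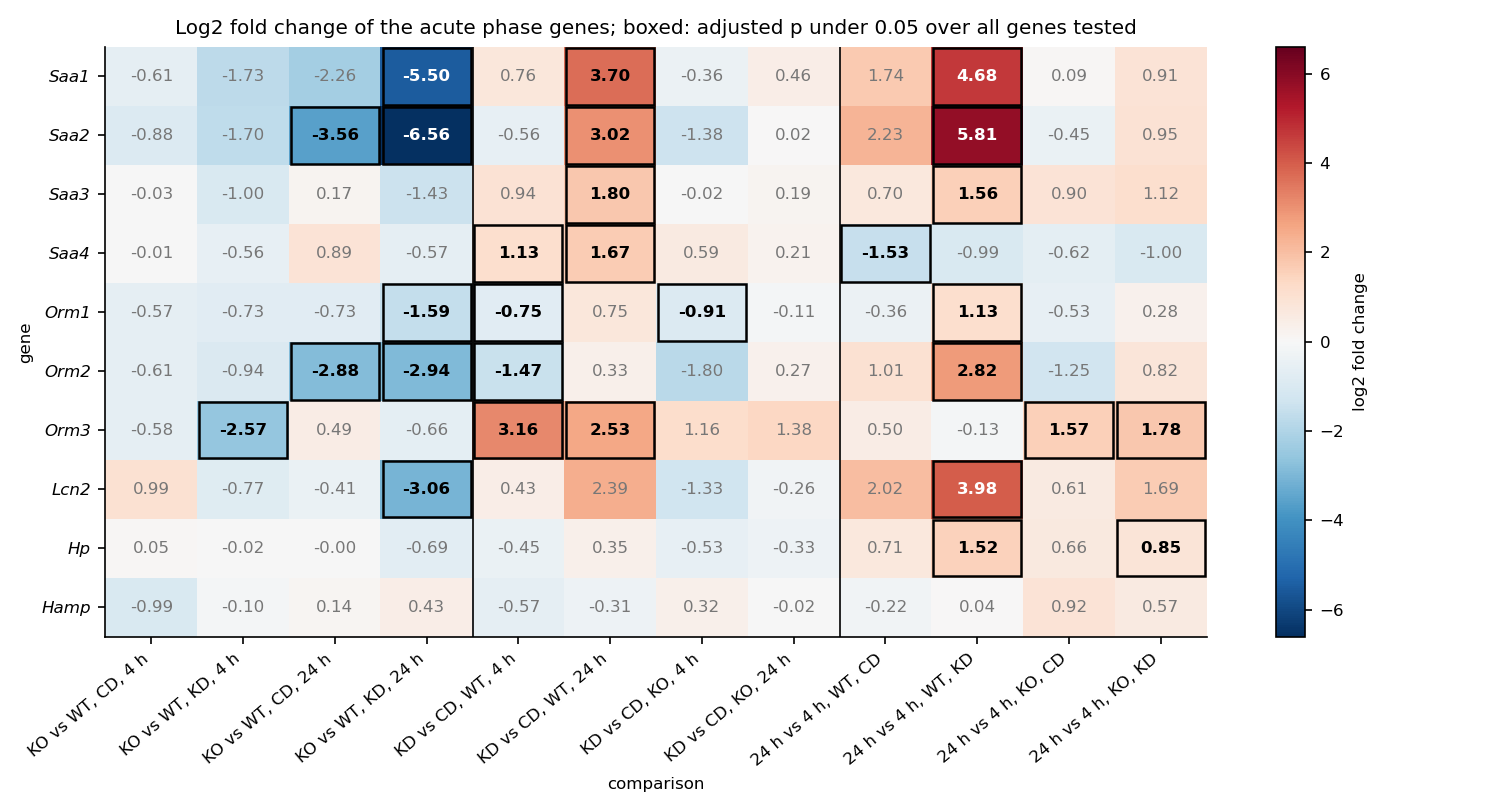
Log2 fold change of the 10 genes (rows) in the 12 comparisons (columns), red for higher and blue for lower in the group named first. Boxed values passed at an adjusted p under 0.05 over all genes tested (edgeR). The deepest blue is Saa2 in KO against WT on KD at 24 h (-6.56), and Hamp has no boxed value.

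Saa1 and Saa2 encode the serum amyloids made by hepatocytes in the acute phase. In WT livers on KD fasted for 24 h, Saa1 was at 1447, 3809.6, 70.7 and 1701 CPM in replicates 1 to 4. In WT livers on KD fasted for 4 h it was at 57.2, 60.7, 53.0 and 103 CPM. Replicate 3 of the 24 h group lay within the 4 h range, and the other 3 were far above it. Saa2 followed the same livers, with 428, 1488, 12.6 and 637 CPM at 24 h and 13.1, 12.4, 7.61 and 12.7 CPM at 4 h. With fasting on KD, Saa1 rose by a log2 fold change of 4.68 ± 0.79 (SE; adjusted p = 0.000228, edgeR) and Saa2 by 5.81 ± 0.95 (adjusted p = 0.000147).

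On CD the same 24 h fast gave a mixed group of WT livers. Saa1 was at 84.5, 22.5, 37.7 and 396 CPM after 24 h and at 33.6, 27.2, 43.6 and 57.4 CPM after 4 h. Saa2 was at 30.8, 6.13, 16.4 and 263 CPM after 24 h, against 16.0, 9.96, 18.7 and 22.8 CPM after 4 h. Replicate 4 was the high one in both genes, and the remaining 24 h livers lay below, within and above the range of the 4 h livers. Neither Saa1 (1.74 ± 0.70, adjusted p = 0.0817, edgeR) nor Saa2 (2.23 ± 0.81, adjusted p = 0.0545) passed. KD against CD within WT livers at 24 h did pass for Saa1 (3.70 ± 0.75, adjusted p = 0.00696, edgeR) and Saa2 (3.02 ± 0.83, adjusted p = 0.0418), though the groups overlapped. When only these 8 livers were fitted, neither passed (adjusted p = 0.276 and 0.501, edgeR), and the Saa2 call was also lost without any 1 of WT CD 24 h replicates 1, 2 and 3 or WT KD 24 h replicates 2 and 4 (adjusted p up to 0.164). Without WT CD 24 h replicate 4 the values were 5.17 for Saa1 (adjusted p = 0.000539, edgeR) and 5.15 for Saa2 (adjusted p = 0.00104).

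No KO group held such livers. Saa1 was at 29.8, 53.6, 37.3 and 34.6 CPM in KO KD 24 h livers and at 11.5, 18.4, 29.8 and 22.9 CPM in KO KD 4 h livers. On CD it was at 16.8, 21.1, 57.2 and 17.8 CPM after 24 h and at 28.1, 28.8, 21.9 and 27.2 CPM after 4 h. Over all 16 KO livers Saa1 ran from 11.5 to 57.2 CPM and Saa2 from 2.93 to 13.6 CPM, whereas the 16 WT livers reached 3809.6 and 1488 CPM. Neither gene passed with diet or fasting in KO livers: with fasting on KD the log2 fold changes were 0.91 ± 0.69 for Saa1 (adjusted p = 0.417, edgeR) and 0.95 ± 0.87 for Saa2 (adjusted p = 0.51). The KO KD 24 h livers still lay above the KO KD 4 h livers in both genes. For Saa1 the gap was narrow (up to 29.83 against 29.85 CPM or more). Saa2 was at 2.93 to 4.39 CPM at 4 h and at 5.70 to 8.41 CPM at 24 h. Each test drew its spread from all 8 groups, the wide WT groups included.

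Saa2 in KO KD 24 h livers was at 5.97, 7.12, 8.41 and 5.70 CPM, below every WT KD 24 h liver. On KD at 24 h, KO livers were lower than WT livers by a log2 fold change of -5.50 ± 0.82 for Saa1 (adjusted p = 0.000138, edgeR) and -6.56 ± 0.99 for Saa2 (adjusted p = 0.000148). In both genes all 4 KO livers were below all 4 WT livers, replicate 3 included. Each call held under every alternative tried, with log2 fold changes from -5.90 to -4.77 and from -6.97 to -5.70.

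In that comparison 5 of the 10 genes were lower in KO livers and none was higher, where 3.95% of all genes tested passed and 1.95% were lower: Saa1, Saa2, Orm1, Orm2 and Lcn2. The median log2 fold change of the 10 genes was -1.51, against -0.03 over all genes. On CD at 24 h, Saa2 (-3.56 ± 0.87, adjusted p = 0.0279, edgeR) and Orm2 (-2.88 ± 0.57, adjusted p = 0.00601) were lower in KO livers, 2 of 10 genes where 2.07% of all genes passed and 1.13% were lower. Neither passed without WT CD 24 h replicate 4, where they were -1.42 (adjusted p = 0.339, edgeR) and -1.67 (adjusted p = 0.0538), or with only those 8 livers fitted (adjusted p = 0.437 and 0.342). Saa2 also did not pass without any 1 of KO CD 24 h replicates 1, 2 and 4 (adjusted p up to 0.111, edgeR). At 4 h, 1 of the 10 genes passed on KD, Orm3, lower in KO livers, where 2.81% of all genes passed and 0.977% were lower. There 4 members had an unadjusted p under 0.05, the median log2 fold change was -0.86, and 3 members passed with only those 8 livers. Saa1 was at 11.5 to 29.8 CPM in KO and 53.0 to 103 CPM in WT livers, without overlap. Saa2 (2.93 to 4.39 against 7.61 to 13.1 CPM) and Orm2 (1.11 to 1.46 against 1.75 to 3.04 CPM) did not overlap either. On CD at 4 h none of the 10 passed, where 1.83% of all genes did and 1 member had an unadjusted p under 0.05 (2 members passed with only those 8 livers and none by DESeq2).

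The macrophage markers moved with genotype at 24 h as well. Of 12 Kupffer cell and macrophage markers, 7 were lower in KO livers after 24 h on KD and 9 after 24 h on CD, where 1.95% and 1.13% of all genes were lower, with medians of -1.08 and -1.28 on the log2 scale. Their sum was 434 to 681 CPM in WT KD 24 h livers and 200.5 to 340 CPM in KO KD 24 h livers, and 331 to 1114 CPM in WT CD 24 h against 171 to 342 CPM in KO CD 24 h livers. On KD at 4 h the sum was also lower in KO livers, at 338 to 518 CPM against 522 to 705 CPM in WT livers. None of the 12 markers passed there, with a median of -0.60 on the log2 scale. Within the WT KD 24 h group the sum was 681, 628, 434 and 498 CPM in replicates 1 to 4, lowest in the liver with low Saa1. In WT CD 24 h livers it was 1114, 331, 343 and 623 CPM, and the highest sum was in replicate 1, not in the liver with high Saa1. The part of macrophages in the Saa1 and Saa2 differences was not tested.

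Saa1 and Saa2 share sequence, and the share of each in their reads is uncertain. Their transcripts were 94.4% identical over 606 aligned bases (GENCODE M21), and 13.2% of the 50-base windows of Saa1 also occur in Saa2. Saa2 made up 11.02% to 40.0% of the summed counts of both genes, from 337 counts in KO KD 4 h replicate 1 to 75882 in WT KD 24 h replicate 2. In WT livers at 4 h the share was 32.2%, 26.8%, 30% and 28.4% on CD and 18.6%, 16.98%, 12.5% and 11.02% on KD. The diets did not overlap there, and the mean difference was -14.6 percentage points, at the smallest p that 4 against 4 livers allow (exact permutation test, two-sided, p = 0.0286). Over the 12 comparisons the adjusted p was 0.171, so no difference in this share passed. When the reads of both genes were summed into 1 gene, the KO against WT difference on KD at 24 h passed as before, and on CD at 24 h it was -2.62 with an adjusted p of 0.0631 (edgeR).

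**Figure D3:**
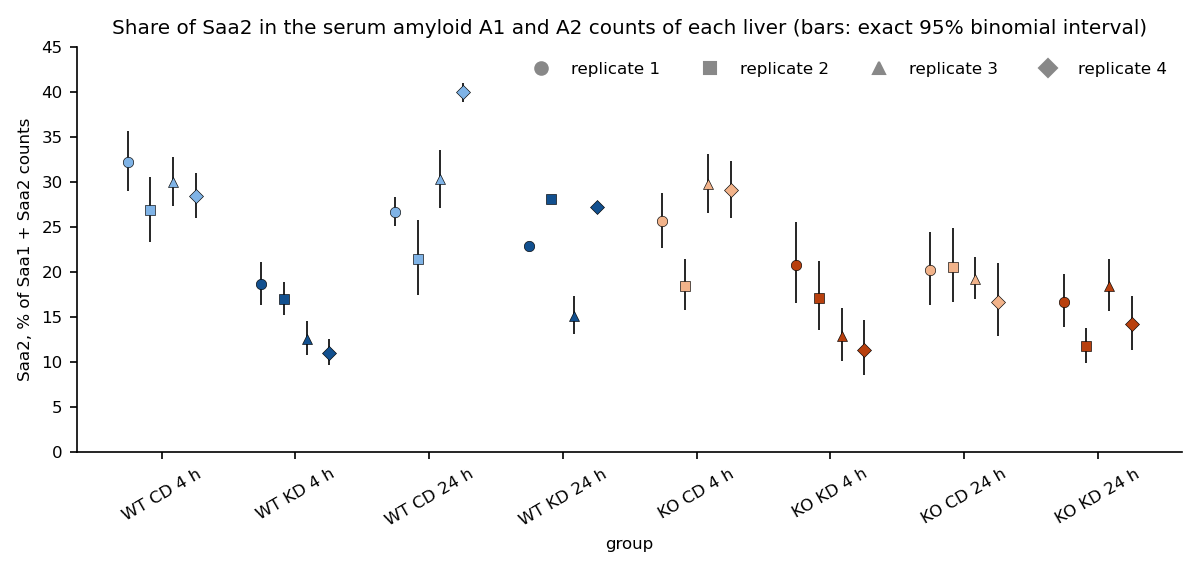
Percentage of Saa2 in the summed Saa1 and Saa2 counts of each liver, by group, with exact (Clopper-Pearson) 95% intervals that cover counting error only. Among WT livers at 4 h the share lay between 26.8% and 32.2% on CD and between 11.02% and 18.6% on KD, and WT CD 24 h replicate 4 had the highest share (40.0%).

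Saa3 encodes a serum amyloid that macrophages and adipocytes also make. It was at 23.5, 13.2, 5.08 and 23.4 CPM in WT KD 24 h livers, at 8.87, 4.97, 4.46 and 3.94 CPM in WT KD 4 h livers and at 8.72, 2.14, 2.72 and 4.74 CPM in WT CD 24 h livers. The same WT KD 24 h replicate 3 was low, and the groups overlapped. Saa3 rose with fasting on KD (1.56 ± 0.43, adjusted p = 0.0175, edgeR) and was higher on KD than on CD at 24 h (1.80 ± 0.44, adjusted p = 0.0206). KO KD 24 h livers were at 5.69, 6.16, 7.12 and 5.12 CPM, and the KO against WT value, -1.43 ± 0.43, did not pass (adjusted p = 0.054, edgeR). The rise with fasting lost its call without any 1 of WT KD 4 h replicates 3 and 4 and WT KD 24 h replicates 1 and 4 (adjusted p up to 0.0824, edgeR), and with only those 8 livers fitted (0.0507). The diet call was lost without any 1 of WT CD 24 h replicate 2 and WT KD 24 h replicates 1 and 4 (adjusted p up to 0.088, edgeR), and with only those 8 livers fitted (0.269).

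Saa4, the constitutive serum amyloid, had another order of groups. It was at 24.7, 47.1, 191 and 145 CPM in WT CD 24 h livers, all below the 261, 195, 303 and 417 CPM of WT CD 4 h livers. With fasting on CD it fell by 1.53 on the log2 scale (SE 0.43, adjusted p = 0.0118, edgeR), the only 1 of the 10 genes to pass in that comparison, where 18.5% of all genes passed and 9.61% fell. The call was lost without WT CD 24 h replicate 2 (adjusted p = 0.0523, edgeR) and with only those 8 livers fitted (adjusted p = 0.101).

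On KD, Saa4 was at 445, 415, 495 and 1219.9 CPM in WT livers at 4 h and at 186, 433, 275 and 401 CPM at 24 h. It was higher on KD than on CD in WT livers at 4 h (1.13 ± 0.42, adjusted p = 0.0458, edgeR) and at 24 h (1.67 ± 0.43, adjusted p = 0.0291). The 4 h value was 0.62 without WT KD 4 h replicate 4, the liver at 1219.9 CPM, and did not pass (adjusted p = 0.27, edgeR), nor without any 1 of WT CD 4 h replicates 1, 2 and 3 (up to 0.129). The 24 h value did not pass without any 1 of WT CD 24 h replicates 1 and 2 and WT KD 24 h replicates 2 and 4 (adjusted p up to 0.105, edgeR) or with only those 8 livers fitted (0.326). In KO livers at 4 h Saa4 was at 207 to 399 CPM on CD and at 373 to 484 CPM on KD. At 24 h it was at 118 to 248 CPM on CD and at 202 to 226 CPM on KD in KO livers. On KD the KO livers at 24 h thus lay below those at 4 h without overlap. No comparison within KO livers or between genotypes passed in the fit that draws its spread from all 8 groups. Over the 32 livers its log2 CPM had a Pearson correlation of 0.09 with that of Saa1, a description of livers that share groups.

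Orm1 and Orm2 encode orosomucoids, the alpha-1-acid glycoproteins of plasma. Orm1 was at 858, 814, 261 and 866 CPM in WT KD 24 h livers, at 364, 314, 286 and 313 CPM in WT KD 4 h livers and at 176, 202, 215 and 340.1 CPM in KO KD 24 h livers. Orm2 was at 21.8, 18.9, 3.63 and 28.7 CPM in WT KD 24 h livers, at 2.63, 2.96, 1.75 and 3.04 CPM in WT KD 4 h livers and at 1.52, 1.98, 2.89 and 3.22 CPM in KO KD 24 h livers. In both genes WT KD 24 h replicate 3 was the low liver of its group. For Orm2 all 4 WT KD 24 h livers still lay above those of both other groups, and for Orm1 replicate 3 lay below the WT KD 4 h livers and within the KO KD 24 h range.

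With fasting on KD in WT livers Orm1 rose by 1.13 ± 0.29 (adjusted p = 0.00942, edgeR) and Orm2 by 2.82 ± 0.55 (adjusted p = 0.00107). With only those 8 livers fitted the Orm1 value was 1.11 and did not pass (adjusted p = 0.0564, edgeR). On KD at 24 h, KO livers were lower by -1.59 ± 0.29 for Orm1 (adjusted p = 0.00145, edgeR) and -2.94 ± 0.56 for Orm2 (adjusted p = 0.0023). The KO against WT calls held under every alternative tried, from -1.86 to -1.45 and from -3.28 to -2.62. After 24 h on CD, Orm2 was at 9.43, 2.73, 6.46 and 39.7 CPM in WT livers, replicate 4 again being the highest, and at 2.22, 3.16, 1.51 and 0.995 CPM in KO livers.

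At 4 h Orm1 and Orm2, unlike Orm3, were lower on KD. Orm1 was at 562, 513, 532 and 540.0 CPM in WT livers on CD, above the 286 to 364 CPM of those on KD, and at 349, 376, 389.7 and 333 CPM in KO livers on CD, above the 137, 167, 288 and 176 CPM of those on KD. Orm2 was at 6.71, 5.49, 7.78 and 8.71 CPM in WT livers on CD and at 1.75 to 3.04 CPM on KD. The KD and CD groups did not overlap in either genotype for either gene. In WT livers Orm1 (-0.75 ± 0.28, adjusted p = 0.0484, edgeR) and Orm2 (-1.47 ± 0.54, adjusted p = 0.0438) fell on KD, and in KO livers Orm1 fell (-0.91 ± 0.28, adjusted p = 0.0468) while Orm2 did not pass (-1.80 ± 0.58, adjusted p = 0.0533). The WT calls were lost without any 1 of the 8 livers (adjusted p up to 0.121 for Orm1 and 0.119 for Orm2), and the KO call without any 1 of 7 of the 8 (up to 0.148, edgeR). Hepatocyte markers were lower in the same comparisons: 4 of 10 in WT and 4 of 10 in KO livers, with medians of -0.58 and -0.39 on the log2 scale. Their sum was 75048 to 91968 CPM on CD and 44241 to 67549 CPM on KD in WT livers, and 78735 to 92395 CPM on CD and 44416 to 67894 CPM on KD in KO livers, without overlap. Their part in the Orm1 and Orm2 differences was not tested.

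In WT livers at 4 h on KD against CD, 4 of the 10 genes passed, Saa4 and Orm3 higher and Orm1 and Orm2 lower, where 27.3% of all genes passed, 10.8% higher and 16.5% lower. In KO livers 1 of 10 passed, Orm1, where 7.22% of all genes did and 4.66% were lower. At 24 h in WT livers 5 of 10 were higher on KD (Saa1, Saa2, Saa3, Saa4 and Orm3), where 2.78% of all genes passed and 1.32% were higher, and none of the 10 passed with only those 8 livers fitted. At 24 h in KO livers none of 10 passed, where 0.00693% of all genes did, 1 member had an unadjusted p under 0.05, and DESeq2 called none of the 10. Replicate 4 of both of these KO groups lay near the other diet and was kept under its label. Over all genes this comparison gave 1 call, and 0 to 109 under the alternatives.

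Orm1 and Orm2 transcripts were 91.0% identical over 775 aligned bases, and 20.4% of the 50-base windows of each occur in the other. The median over the 32 livers was 436 FPKM for Orm1 and 3.95 FPKM for Orm2. How the counting split reads between these copies was not tested, and the Orm2 values carry this uncertainty.

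Orm3, the third orosomucoid gene, was higher on KD in WT livers at both fasting times. In WT livers it was at 1.39, 0.725, 1.22 and 0.798 CPM on CD and 5.52, 5.60, 9.40 and 16.6 CPM on KD at 4 h. At 24 h it was at 0.636, 0.517, 1.16 and 3.78 CPM on CD and 4.00, 12.99, 6.53 and 10.4 CPM on KD. Every WT liver on KD was above every WT liver on CD of the same fasting time, and WT KD 24 h replicate 3, low in Saa1 and Orm2, was not low here. Orm3 was higher on KD by 3.16 ± 0.51 at 4 h (adjusted p = 4.76e-05, edgeR) and by 2.53 ± 0.50 at 24 h (adjusted p = 0.0055). The 4 h call held under every alternative, from 2.72 to 3.37, and the 24 h call under all but the fit of those 8 livers alone (2.53, adjusted p = 0.163).

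In KO livers Orm3 was at 0.282, 0.911, 0.814 and 0.755 CPM on CD at 4 h and at 0.732, 2.24, 1.40 and 1.93 CPM on KD at 4 h, where the diets overlapped. The diet value of 1.16 ± 0.54 did not pass (adjusted p = 0.179, edgeR), and KO livers on KD at 4 h were lower than WT livers by -2.57 ± 0.49 (adjusted p = 0.002), with no overlap. This call held under every alternative, from -2.79 to -2.13. The diet effects of the genotypes at 4 h differed by -1.99 ± 0.74 on the log2 scale, which did not pass (adjusted p = 0.463, edgeR).

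After 24 h KO livers held more Orm3: 2.11, 1.81, 2.27 and 2.05 CPM on CD and 4.28, 5.99, 8.47 and 2.70 CPM on KD. Orm3 rose with fasting in KO livers on CD (1.57 ± 0.53, adjusted p = 0.0382, edgeR) and on KD (1.78 ± 0.48, adjusted p = 0.0202), but in WT livers the values were 0.50 ± 0.54 (adjusted p = 0.556) and -0.13 ± 0.44 (adjusted p = 0.9). The difference between genotypes in the fasting effect on KD, 1.91 ± 0.65, did not pass (adjusted p = 0.194, edgeR). The CD call was lost without any 1 of 7 of the 8 livers (adjusted p up to 0.116), and the KD call without KO KD 4 h replicate 1 or KO KD 24 h replicate 3 (up to 0.0765).

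Lcn2 encodes lipocalin 2, which hepatocytes and neutrophils make. It was at 21.7, 202, 22.9 and 118 CPM in WT KD 24 h livers and at 2.04, 2.64, 2.52 and 16.2 CPM in WT KD 4 h livers. KO KD 24 h livers were at 8.84, 12.9, 13.8 and 8.04 CPM. The WT KD 24 h livers lay above both other groups without overlap, 2 of them by a wide margin. Lcn2 rose with fasting on KD in WT livers by 3.98 ± 0.79 (adjusted p = 0.00117, edgeR), and KO livers on KD at 24 h were lower by -3.06 ± 0.75 (adjusted p = 0.0185). The second call was lost without WT KD 24 h replicate 2 (-2.29, adjusted p = 0.121, edgeR) or any 1 of KO KD 24 h replicates 1, 2 and 4 (adjusted p up to 0.0654).

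Lcn2 stood out in a single liver of WT KD 4 h and of KO CD 4 h, replicate 4 in each, while WT CD 24 h livers were spread over a wide range. WT CD 24 h livers were at 23.9, 3.10, 11.4 and 30.8 CPM, KO CD 24 h livers at 15.8, 16.4, 13.8 and 6.16 CPM, and KO CD 4 h livers at 4.75, 2.88, 3.46 and 23.0 CPM. KO CD 4 h replicate 4 was also the liver with the highest sum of 11 neutrophil markers, 19.6 CPM, against 2.07 to 3.30 CPM in the other 3 of its group. WT KD 4 h replicate 4, the high liver of its group in Lcn2, had the lowest neutrophil sum of its group, 2.86 CPM against up to 6.37 CPM. In WT KD 24 h livers the sum was 14.4, 7.33, 6.75 and 7.51 CPM, not highest in replicate 2 with the most Lcn2. Of the 11 neutrophil markers 3 passed the low-count filter and none passed a test in any of the 12 comparisons. In KO CD 4 h replicate 4 the sum of 6 cholangiocyte markers was also the highest of its group, 72.4 CPM against 36.9 to 42.3 CPM. That sum was highest of its group in WT KD 4 h replicate 4 too (44.6 CPM), and lowest of its group in WT KD 24 h replicate 2 (27.6 CPM). Which cells the Lcn2 reads came from was not tested.

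**Figure D4:**
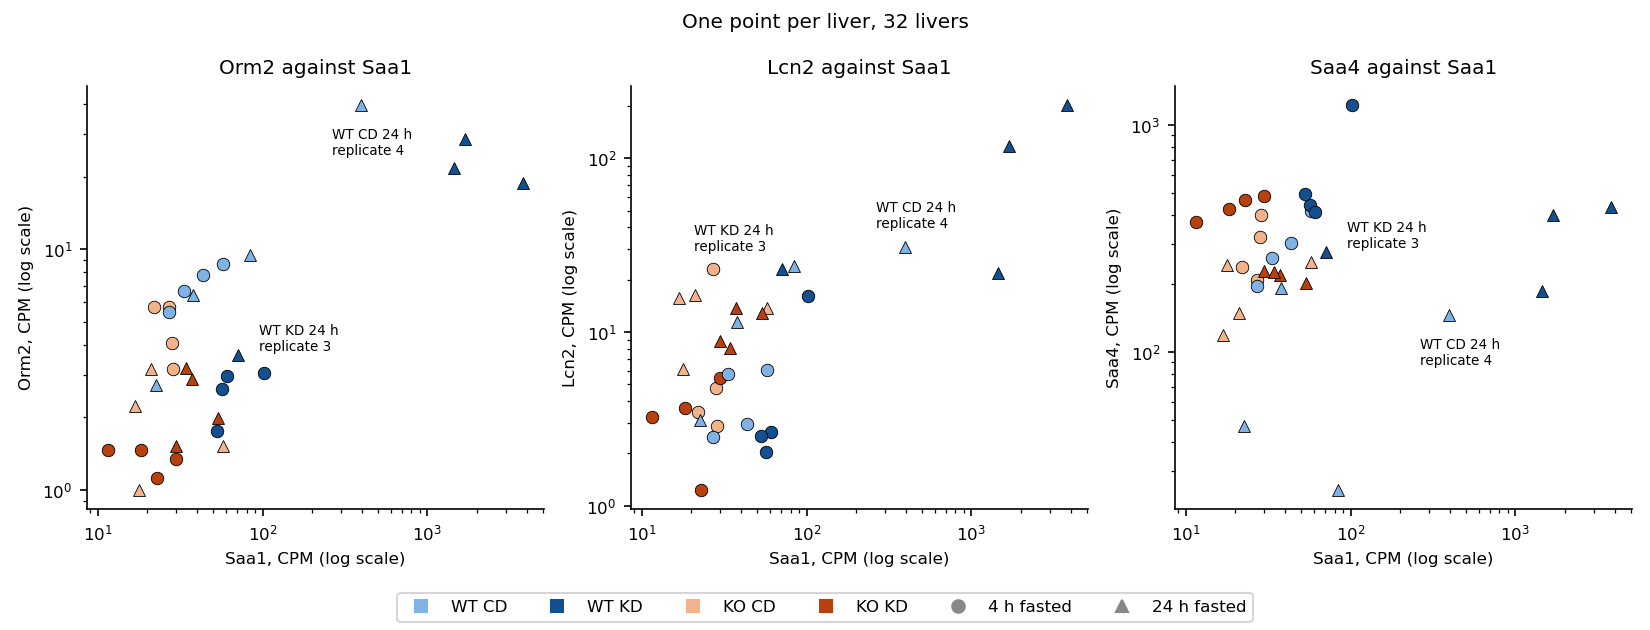
CPM of Orm2, Lcn2 and Saa4 against CPM of Saa1 on log axes, one point per liver, 32 livers. The WT KD 24 h livers other than replicate 3 lie at the far right in all panels, WT CD 24 h replicate 4 is highest in Orm2 (39.7 CPM), and the Saa4 of those livers lies within the range of the other livers.

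Hp encodes haptoglobin, which binds free haemoglobin in plasma, and had the highest median FPKM of the 10 genes. It was at 3221, 4939, 3114 and 6438 CPM in WT KD 24 h livers and at 1285, 1649.9, 1229 and 2018 CPM in WT KD 4 h livers, without overlap. It rose with fasting on KD in WT livers by 1.52 ± 0.28 (adjusted p = 0.000612, edgeR), a call that held under every alternative. In KO livers on KD it was at 1928, 1465, 1466 and 1228 CPM at 4 h and at 2333, 2695, 2421 and 3530.3 CPM at 24 h, also without overlap, and rose by 0.85 ± 0.28 (adjusted p = 0.0497). That call was lost without any 1 of the 8 livers (adjusted p up to 0.154, edgeR).

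On CD the fasting values of Hp were 0.71 ± 0.28 in WT livers (adjusted p = 0.0702, edgeR) and 0.66 ± 0.28 in KO livers (adjusted p = 0.0908), and neither passed. The means on CD at 4 h and 24 h were 2113 ± 523 and 3465 ± 821 CPM in WT livers and 2191 ± 402 and 3459 ± 1454 CPM in KO livers (SD, n = 4 each). Between genotypes Hp differed by -0.69 ± 0.28 on KD at 24 h, which did not pass (adjusted p = 0.162, edgeR), and by no more than 0.05 in size in the other 3 comparisons.

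Across the 24 h fast, 7 of the 10 genes rose in WT livers on KD (Saa1, Saa2, Saa3, Orm1, Orm2, Lcn2 and Hp), where 10.9% of all genes passed and 6.26% rose. In KO livers 2 rose on KD, Orm3 and Hp, where 9.38% of all genes passed and 4.56% rose, and 1 rose on CD, Orm3, where 18.7% passed and 8.97% rose. These counts depend on the spread shared by all 8 groups. With only the groups compared, 6 of the 10 passed in KO livers on KD. In WT livers on KD the Saa3 and Orm1 calls were then lost (adjusted p = 0.0507 and 0.0564, edgeR). On KD the 2 fasting times did not overlap for 8 of the 10 genes in KO livers and for 3 in WT livers. That share was not counted over all genes. The median log2 change of the 10 genes was 1.54 in WT livers on KD and 0.88 in KO livers on KD, against 0.00 and -0.03 over all genes. The difference between genotypes in the fasting change on KD was -3.77 ± 1.00 for Saa1 (adjusted p = 0.098, edgeR) and -4.86 ± 1.22 for Saa2 (adjusted p = 0.0776). None of the 10 genes passed that test, where 0.256% of all genes did, while 6 had an unadjusted p under 0.05 and DESeq2 called 2.

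In WT livers the fasting change itself differed between the diets. It was larger on KD for Saa1 by 2.95 ± 0.98 (adjusted p = 0.0447, edgeR), for Saa2 by 3.58 ± 1.14 (adjusted p = 0.0354) and for Orm1 by 1.497 ± 0.40 (adjusted p = 0.013), 3 of 10 genes where 12.9% of all genes passed and 7.6% were higher. The Orm1 value held under every alternative, from 1.35 to 1.77. The Saa1 and Saa2 calls were each lost when any 1 of 11 of the 16 livers was left out, with adjusted p up to 0.142 and 0.116, lowest in size without WT KD 24 h replicate 2 (2.23 and 2.74). Without WT CD 24 h replicate 4 the values were larger, 4.39 for Saa1 (adjusted p = 0.00158, edgeR) and 5.68 for Saa2 (adjusted p = 0.000363). Between genotypes, none of the 10 differed in the diet effect at 24 h, where 0% of all genes did, 6 members had an unadjusted p under 0.05 and DESeq2 called none. None differed in the diet effect at 4 h (0.104% of all genes, 1 member with an unadjusted p under 0.05), in the fasting effect on CD (0.61%, 3 members) or in the 3-way term (0.125%, 0 members), and DESeq2 called none in these either. In KO livers none of the 10 passed the test of diet by fasting, where 1.39% of all genes did, 1 member had an unadjusted p under 0.05 and DESeq2 called none.

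Hamp encodes hepcidin, the hormone that lowers iron export by acting on ferroportin, and its transcription follows both iron, through BMP signals, and interleukin 6. It did not pass in any of the 12 comparisons. In WT livers it was at 699.7, 518, 962 and 1195 CPM on CD at 4 h and at 1263, 571, 273 and 796 CPM on CD at 24 h. On KD it was at 357, 726, 365 and 827 CPM at 4 h and at 582, 409, 567 and 781 CPM at 24 h. In the WT KD 24 h livers with high Saa1, replicates 1, 2 and 4, Hamp was thus within the range of the other WT livers. WT CD 24 h spread the most, over the whole range of the 32 livers.

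In KO livers Hamp was at 423, 445, 441 and 389.6 CPM on CD at 4 h, below all 4 WT livers on CD at 4 h, but the difference of -0.99 ± 0.35 did not pass (adjusted p = 0.214, edgeR). It was at 567, 331, 707 and 512 CPM on KD at 4 h, at 761, 859.6, 1153 and 430.0 CPM on CD at 24 h and at 798, 810.3, 859 and 682 CPM on KD at 24 h. On KD at 24 h, where Saa1 was lower in KO livers, the Hamp value was 0.43 ± 0.35 (adjusted p = 0.522, edgeR).

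Hamp2, the neighbouring copy that is not known to regulate iron as Hamp does, passed in 5 of the 12 comparisons. In WT livers at 4 h it was at 76.5, 83.4, 36.2 and 28.0 CPM on CD and at 1.91, 3.27, 3.73 and 12.8 CPM on KD. In KO livers at 4 h it was at 20.8, 21.2, 28.4 and 37.8 CPM on CD and at 1.90, 2.41, 3.88 and 2.58 CPM on KD. The diets did not overlap in either genotype, and Hamp2 fell on KD by -3.38 ± 0.60 in WT livers (adjusted p = 0.000151, edgeR) and by -3.34 ± 0.62 in KO livers (adjusted p = 0.00139). It also fell with fasting in WT livers on CD (-3.03 ± 0.59, adjusted p = 0.000438, edgeR).

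In KO livers on KD, Hamp2 instead rose with fasting, to 11.1, 15.1, 9.76 and 19.1 CPM (2.37 ± 0.62, adjusted p = 0.0154, edgeR), and was then above the 4.07, 1.75, 2.32 and 1.79 CPM of WT livers (2.47 ± 0.63, adjusted p = 0.0246). Hamp and Hamp2 transcripts were 94.6% identical over 410 aligned bases, with 16.6% of the 50-base windows of Hamp in Hamp2. Hamp was at 273 CPM or more in every liver and Hamp2 at 83.4 CPM or less, and how the counting split reads between these copies was not tested. Of 25 tested genes of iron and hepcidin control, 10 fell and 1 rose on KD in WT livers at 4 h, where 27.3% of all genes passed and 16.5% fell. Hamp2 is in this list and was 1 of the 10. Atoh8 (-1.38, adjusted p = 0.000371, edgeR), Tfr2, transferrin receptor 2 (-0.96, adjusted p = 0.0139) and Neo1, which encodes neogenin (-0.89, adjusted p = 0.00165), were others. In KO livers 3 of the list fell and none rose, where 7.22% of all genes passed and 4.66% fell. Hamp2 was again 1 of them, and Hfe2, the gene of the BMP coreceptor hemojuvelin, was another (-0.61, adjusted p = 0.0116, edgeR).

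**Figure D5:**
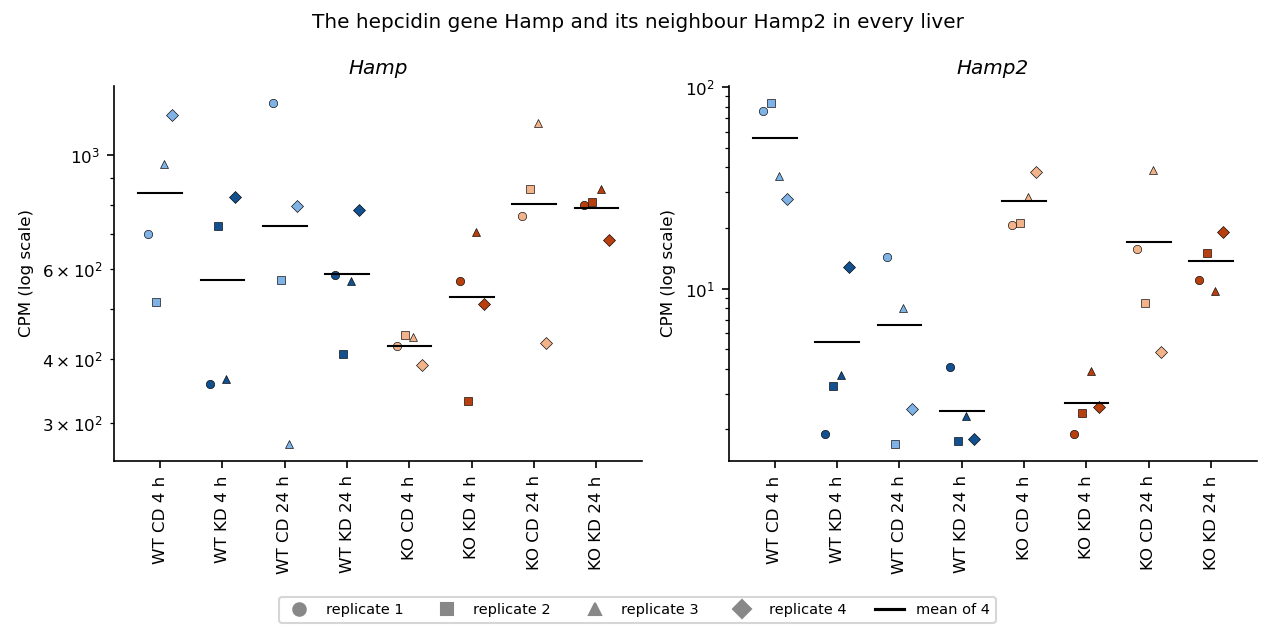
CPM of Hamp and Hamp2 on log axes in the 8 groups, one point per liver with the marker giving the replicate number, and a bar at the mean of 4. Hamp overlapped between nearly all groups, while Hamp2 at 4 h lay between 20.8 and 83.4 CPM on CD and between 1.90 and 12.8 CPM on KD.

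Other positive acute phase genes, a list of 26 that were all tested, more often rose than fell with the fast on KD in WT livers. The list was chosen with earlier results of these data known, so its shares here and below are descriptions and not independent tests. With the 24 h fast 14 rose and 1 fell, where 10.9% of all genes passed and 6.26% rose, with a median log2 change of 1.01. The pentraxin gene Apcs rose by 2.45 (adjusted p = 1.27e-05, edgeR), the fibrinogen-like hepatokine gene Fgl1 by 2.34 (adjusted p = 2.29e-05), the lipopolysaccharide-binding protein gene Lbp by 1.82 (adjusted p = 0.000158) and the protease inhibitor gene Serpina3n by 1.48 (adjusted p = 0.00494). In KO livers on KD 5 rose and 1 fell, where 9.38% of all genes passed and 4.56% rose, among them Apcs (1.97, adjusted p = 0.000279, edgeR) and Fgl1 (1.59, adjusted p = 0.00214).

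On KD at 24 h, 7 of the 26 were lower in KO livers and 1 was higher, where 3.95% of all genes passed and 1.95% were lower. The higher one was Il1rn, the interleukin 1 receptor antagonist gene (1.26, adjusted p = 0.0249, edgeR). Fgl1 was lower by -2.06 (adjusted p = 0.000185, edgeR), Itih4 by -1.47 (adjusted p = 0.00895) and Serpina3n by -1.46 (adjusted p = 0.0133). Fgl1 averaged 1053 ± 489 CPM in WT and 253 ± 68.9 CPM in KO livers (SD, n = 4 each). The haem-binding protein gene Hpx, a partner of Hp in clearing haemoglobin products, was another of the 7 (-1.10, adjusted p = 0.00309, edgeR). Cd163, the macrophage receptor for haptoglobin with haemoglobin, is not in this list and was lower too (-1.33, adjusted p = 0.00571, edgeR).

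At 4 h more of the 26 fell than rose on KD. In WT livers 15 fell and 2 rose, where 27.3% of all genes passed and 16.5% fell: the fibrinogen chain gene Fga fell (-2.05, adjusted p = 4.44e-05, edgeR), and the metallothionein genes Mt2 (3.77, adjusted p = 0.0139) and Mt1 (2.95, adjusted p = 0.0185) rose. In KO livers, where 7.22% of all genes passed and 4.66% fell, 11 of 26 fell and none rose, Fga (-1.32, adjusted p = 0.0116, edgeR) and Apcs (-1.23, adjusted p = 0.0142) among them. Negative acute phase genes, whose plasma proteins fall in inflammation, were lower there too. With KD in WT livers at 4 h, 6 of 10 fell and none rose, where 16.5% of all genes fell, led by Serpinc1 (-1.08, adjusted p = 0.000288, edgeR) and Alb (-1.02, adjusted p = 0.00545). On KD at 24 h none of the 10 passed between genotypes, by a median of 0.00. The hepatocyte marker sum was lower on KD between the same 4 h groups, with medians of 84419 and 50188 CPM on CD and KD in WT livers and 84663 and 56389 CPM in KO livers, Alb being one of the markers, and its part in these list counts was not tested.

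Among the cytokines that drive the response, Il1a (15 to 122 counts, 1.09 to 7.76 CPM) and Il1b (2 to 109 counts, 0.113 to 4.89 CPM) were read in all 32 livers, and neither passed in any of the 12 comparisons. In KO against WT livers on KD at 24 h, the Il1b log2 fold change was -1.84 ± 0.63 (adjusted p = 0.0971, edgeR) and that of Il1a -0.32 ± 0.38 (adjusted p = 0.676). The others were near 0: Il6 had 0 to 3 counts and was at 0 in 22 of 32 livers, Il22 was at 0 in all 32, Il11 in 24, Osm in 17, Lif in 16 and Tnf, with up to 10 counts, in 3, so differences in these were not detectable at this depth. Of 26 tested cytokine, receptor and signalling genes, 1 was lower in KO livers on KD at 24 h, a share near the 3.95% of all genes that passed. It was Stat3, the factor downstream of interleukin 6 (-0.91, adjusted p = 0.0426, edgeR). Stat3 averaged 117 ± 29.5 CPM in WT KD 24 h livers and 62.3 ± 2.22 CPM in KO KD 24 h livers, and 127 ± 25.8 CPM in WT CD 4 h against 63.6 ± 17.5 CPM in WT KD 4 h livers (SD, n = 4 each).

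Stat3 fell on KD at 4 h in WT (-0.998, adjusted p = 0.00547, edgeR) and KO livers (-0.95, adjusted p = 0.0244), and rose with fasting on KD in WT livers (0.88, adjusted p = 0.025). Cebpd, a C/EBP factor induced in the acute phase and by glucocorticoids, rose in WT livers with KD at 4 h (1.94, adjusted p = 5.86e-05, edgeR) and with fasting on CD (2.13, adjusted p = 1.94e-05), and was lower in KO than in WT livers on CD at 24 h (-1.24, adjusted p = 0.0287). Lifr, the leukaemia inhibitory factor receptor gene, fell with fasting in WT livers on CD (-1.07, adjusted p = 0.00104, edgeR) and KD (-1.20, adjusted p = 0.000725) and in KO livers on CD (-0.89, adjusted p = 0.00721) and KD (-1.34, adjusted p = 0.000598). Of 10 genes of the glucocorticoid receptor and its targets, 3 rose and 1 fell in WT livers with KD at 4 h, where 27.3% of all genes passed, and 4 rose and 1 fell with fasting on CD, where 18.5% did. Fkbp5 and Per1 rose in WT livers with KD at 4 h (2.35, adjusted p = 0.00178, and 1.71, adjusted p = 9.84e-05, edgeR) and with fasting on CD (2.49, adjusted p = 0.00132, and 1.70, adjusted p = 0.000115).

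The genes most like a member were taken by the Pearson correlation of log2 CPM over the 32 livers, among 9153 other genes, as a description of livers that share groups. For Saa2 they were Hpx (r = 0.82), Fgl1 (0.81) and the interferon factor gene Irf7 (0.79), and for Orm2 Hpx (0.87), Ly6e (0.81) and the protease gene Ctsc (0.80). For Lcn2 they were Fgl1 (0.80), Lrg1 (0.75) and Ppl (0.75), for Saa3 Nfkbiz (0.77), Fgl1 (0.77) and Vimp (0.76), and for Hp Lbp (0.88), Cyp3a13 (0.88) and Itih3 (0.86). Hamp had weaker likeness to any gene: Swsap1 (0.65), Id3, a BMP-responsive gene (0.65), and Taf1b (0.64). Within the members the highest r was that of Saa1 with Saa2 (0.96), then Saa2 with Orm2 (0.88) and Orm1 with Orm2 (0.85). The first and last of these pairs are alike in sequence, so the split of their reads is uncertain.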

How the data were processed

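RNA was sequenced from 32 whole livers, 1 library per animal. The authors deposited raw read counts per gene and FPKM values in 1 table. Per the submitters' processing notes, Bowtie2 2.2.3, TopHat2 2.0.12 and HTSeq 0.6.1 were used with GRCm38 (mm10). Neither the strand setting nor the annotation release was stated there, so whether reads of overlapping antisense genes were separated is not known. The deposited FPKM matched count, gene length and total count within 0.1% in 100% of values, and served only to set levels of different genes side by side. CPM here is the count per 1000000 of the library size of the tested genes after TMM scaling, so CPM and FPKM are not proportional across livers. In 27 rows a symbol stored as a date was restored.

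Counts were tested with edgeR 4.0.16 in R 4.3.3: TMM normalization, the default filterByExpr filter (14438 genes), 8 group means over all 32 libraries, quasi-likelihood tests, and Benjamini-Hochberg adjustment within each of 12 comparisons and 7 interactions. The SE of a log2 fold change is its size divided by the square root of F. Shares of Saa2 were compared by exact permutation tests, two-sided. The code was tested on simulated counts. Alternatives were DESeq2 1.42.0, its size factors in edgeR, no filter, only the groups compared, each replicate left out, 4 libraries with Acta1 above 10 CPM left out, 2 libraries near the other diet left out (KO CD 24 h replicate 4 and KO KD 24 h replicate 4), and Saa1 and Saa2 summed. These 2 libraries kept their diet labels in the main fit, and why they lay near the other diet was not tested.

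The members and gene lists were chosen with earlier results of these data known. All 10 members are named, with up to 4 genes per list and comparison among those that passed, by size of change, and for 6 members the 3 most alike genes by Pearson correlation, among genes averaging at least 5 CPM and without Gm or Rik names. Hamp2 was added as the copy of Hamp, and Slc27a2 and Acta1 as checks. Cytokines below the filter are given by counts.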

Additional observations from a re-analysis of the deposited data

Results flagged for a closer look

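In 9 of 80 combinations of a member gene and a group of 4 livers, 1 liver stood far from the other 3 by Dixon's test on CPM. Chance alone does this in about 1 in 20 combinations only if the values are normally distributed, which was not tested. The combinations share livers and genes that moved together, so the 9 are not independent and were not compared with that rate. WT CD 24 h replicate 4 was high in Saa1, at 396 CPM against 22.5 to 84.5 CPM, and in Saa2, at 263 CPM against 6.13 to 30.8 CPM. WT KD 4 h replicate 4 was high in Saa1 (103 CPM against 53.0 to 60.7), Saa4 (1219.9 CPM against 415 to 495) and Lcn2 (16.2 CPM against 2.04 to 2.64). WT KD 4 h replicate 3 was low in Saa2, at 7.61 CPM against 12.4 to 13.1 CPM. WT KD 24 h replicate 3 was low in Orm1, at 261 CPM against 814 to 866 CPM. KO CD 24 h replicate 3 was high in Saa1, at 57.2 CPM against 16.8 to 21.1 CPM, and KO CD 4 h replicate 4 in Lcn2, at 23.0 CPM against 2.88 to 4.75 CPM.

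The change with fasting in WT livers differed between the diets, by an interaction test, for Saa1 (2.95 on the log2 scale), Saa2 (3.58) and Orm1 (1.497), larger on KD in each. Of all genes, 12.9% passed this test and 7.6% were higher. With 1 liver left out, the Saa1 and Saa2 calls each held in 5 of 16 fits and the Orm1 call in all 16.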

How the results depend on the processing

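Of 32 calls of members, 12 held under every alternative run for them and none reversed. Of the 29 calls between groups, 14 held whichever liver was left out. Counts of the 10 members that passed moved as follows. With only the groups compared, KO against WT gave 2 rather than 0 on CD at 4 h, 3 rather than 1 on KD at 4 h and 0 rather than 2 on CD at 24 h. KD against CD gave 0 rather than 5 in WT at 24 h and 3 rather than 1 in KO at 4 h. Fasting gave 0 rather than 1 in WT on CD, 3 rather than 1 in KO on CD and 6 rather than 2 in KO on KD. Without the libraries with muscle transcripts, the counts were 1 (from 2) for KO against WT on CD at 24 h, 3 (from 5) and 0 (from 1) for KD against CD in WT at 24 h and KO at 4 h, and 2 (from 1) and 1 (from 2) for fasting in WT on CD and KO on KD. Diet by fasting in WT then gave 1 (from 3), and genotype by diet at 24 h and genotype by fasting on KD 1 each (from 0). Without the 2 libraries near the other diet, KO against WT on CD at 24 h gave 1, and fasting gave 2 in WT on CD, 2 in KO on CD and 1 in KO on KD. With no filter, KD against CD at 4 h gave 2 in WT (from 4) and 0 in KO (from 1), and fasting in KO on KD 1. DESeq2's size factors gave 0 for KD against CD in KO at 4 h. DESeq2 gave 2 there, 4 and 3 for fasting on CD in WT and KO, and 2 for genotype by fasting on KD.

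With each replicate left out in turn, KO against WT at 4 h gave 0 on CD and 1 on KD, and at 24 h 0 to 3 on CD and 4 to 6 on KD. KD against CD gave 1 to 2 and 2 to 7 in WT at 4 and 24 h, and 0 to 1 and 0 in KO. Fasting gave 1 to 3 on CD and 6 to 7 on KD in WT, and 0 to 2 and 0 to 1 in KO. Diet by fasting gave 1 to 4 in WT and 0 in KO, genotype by diet 0 at 4 h and 0 to 2 at 24 h, genotype by fasting 0 on CD and 0 to 2 on KD, and the 3-way term 0. The cause of these moves was not tested. Over all genes, the count for KO against WT on CD at 24 h was 299, and 13 to 2247 under the alternatives. On KD at 24 h it was 571, and 226 to 960. For KD against CD at 24 h it was 401, and 46 to 703, in WT and 1, and 0 to 109, in KO. No paired analysis was possible because the replicate numbers follow the order of deposit and pair no animals across groups.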
